A study of Mus musculus with 94 samples.

Results

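L1Md_F2 is a subfamily of mouse LINE-1 (L1) retrotransposons, and its single copies were followed in cortex and hippocampus of Ts65Dn and wild-type mice. The members were the elements of the deposited L1 count table whose name before the copy number is exactly L1Md_F2. They leave out 4 copies set aside by the rule of selection (L1Md_F2_dup59906, L1Md_F2_dup57795, L1Md_F2_dup34671 and L1Md_F2_dup5854). This gave 44951 of the 430083 L1 elements of the table, or 10.5%. Trisomic Ts65Dn (TS) males, a mouse model of Down syndrome, were born to B6EiC4Sn.BLiA-Ts(1716)65Dn/DnJ mothers and B6C3F1/OlaHsd hybrid fathers, and wild-type (WT) male littermates served as controls. The recorded age of all mice is 3 to 4 months. Whether this was their age before treatment or at tissue collection is not known. Treated mice (WT-t, TS-t) had lamivudine at 3 mg/kg in their drinking water for 4 months, and non-treated mice (WT-nt, TS-nt) had water. Cortex libraries numbered 9 for WT-nt, 17 for WT-t, 9 for TS-nt and 13 for TS-t. Hippocampus libraries numbered 8, 17, 8 and 13, and 46 of the 48 mice had both.

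An L1 element is transcribed into an RNA that encodes an RNA-binding protein, ORF1p, and ORF2p, which has endonuclease and reverse transcriptase activity. A new copy arises when this RNA is reverse transcribed at a nicked site of the genome, and most copies are truncated at the 5' end. The F subfamilies are older relatives of the Tf, Gf and A subfamilies. Reads on an old copy can come from its own transcript or from a longer transcript that runs through it. Lamivudine is a nucleoside analog that inhibits reverse transcriptase, a step that follows transcription.

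All L1 counts of a library added up to 186545 to 1165192 in cortex and 178454 to 403378 in hippocampus. Members held 9048 to 103378 of them in cortex and 9924 to 25386 in hippocampus. On the first principal component of L1 expression 8 cortex libraries lay far from the rest (WT-nt mouse 1, WT-t mice 1, 2, 3 and 16, TS-nt mouse 1, and TS-t mice 1 and 2), and no hippocampus library did. Animal labels of all non-treated mice begin with 20, and those of treated mice with 18, 19 or 20, so treatment and label can be told apart only among the mice of label 20. Of the treated mice, 3 WT-t and 8 TS-t have label 20. In bulk tissue, fewer cells of a type and less RNA per cell cannot be told apart, and the table holds no genes against which the tissue labels could be checked.

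Most L1Md_F2 copies had few counts or none. In cortex 29556 members (65.8%) had a count in at least 1 library and in hippocampus 21867 (48.6%), against 81.5% and 63.0% of all L1 elements. No library of either tissue had a count for 11551 members. A single library held all the counts of 11246 members in cortex and of 7883 in hippocampus, and 19 and 93 members had a count in every library. The cortex library of WT-t mouse 1 had a count for only 305 members, against 1624 in the lowest hippocampus library. The numbers 19 and 93 are therefore not compared between tissues. Counts were spread over many copies, with 1001 members in cortex and 591 in hippocampus needed to reach 50% of the member counts, while the 10 most counted copies held 10.2% and 12.7%. Per copy, L1Md_F2 had 0.626 times the mean count of all L1 elements in cortex and 0.558 times in hippocampus, not corrected for length. The other F subfamilies had 0.604 and 0.537 times (L1Md_F) and 0.552 and 0.518 times (L1Md_F3). For the subfamilies with younger copies the ratios were 0.787 and 0.501 (L1Md_T), 0.533 and 0.465 (L1Md_A) and 0.624 and 0.535 (L1Md_Gf). The cortex ratio of L1Md_T rests on libraries with a high share of it, up to 18.6% of L1 counts. In the median cortex library the ratio was 0.536 for L1Md_T and 0.605 for L1Md_F2.

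A few copies led in both tissues. Levels of single copies are given as CPM (counts per 1000000 L1 counts of the tested elements, with TMM factors), and because lengths were known for only 5 members they are compared between samples and not between copies. Levels in the comparison of tissues come from a joint fit of 92 libraries. All other levels come from the fit of each tissue, so these scales differ, and levels by group are not on 1 scale across tissues. L1Md_F2_dup28824 was the most counted, with 2.36% of the member counts in cortex and 2.72% in hippocampus. Its cortex level was 690.2 to 3487 CPM in WT-nt (median 2769), 846 to 5719 in WT-t (median 3272), 2406 to 4522 in TS-nt (median 2917) and 1700.0 to 4839 in TS-t (median 3451), and the 4 groups overlapped. Hippocampus medians were 2506, 2589, 2227 and 2387 CPM in the same order of groups. L1Md_F2_dup28825, which carries the next number, had medians of 2015, 2431, 2263 and 2943 CPM in cortex and 2041, 1985, 1942 and 2100.0 CPM in hippocampus. The levels of this pair rose and fell together over libraries, with r = 0.87 (rho = 0.89) over 48 cortex libraries and r = 0.95 (rho = 0.86) over 46 hippocampus libraries. Leaving out the 2 farthest libraries gave r = 0.84 and 0.88, and these values are a description with no test. L1Md_F2_dup501 followed, with medians of 1946, 2120.2, 2045 and 2188 CPM in cortex and 1642, 1798, 1498 and 1801 CPM in hippocampus. L1Md_F2_dup25903 and L1Md_F2_dup50760 in cortex, and L1Md_F2_dup50760 and L1Md_F2_dup47820 in hippocampus, completed the 5 copies of highest mean level.

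In cortex, the share of a library's L1 counts that lay on L1Md_F2 was lower in TS-nt than in WT-nt mice. It was 6.22% to 8.87% (median 6.41%) in WT-nt and 5.72% to 6.54% (median 6.17%) in TS-nt. For WT-t it was 4.56% to 6.79% (median 6.40%), and for TS-t 5.31% to 8.15% (median 6.27%). The WT-nt and TS-nt ranges overlapped, and the highest value of all, that of WT-nt mouse 1, came from the library with the largest L1 total. Means were 6.74% ± 0.84 in WT-nt and 6.15% ± 0.23 in TS-nt (SD, n = 9 each), which differ by -0.60 percentage points (exact permutation test, two-sided, p = 0.00654, adjusted over 10 comparisons of shares 0.0654). Without the far libraries the difference was -0.28 (exact permutation p = 0.0247, adjusted 0.247), and without WT-nt mouse 1 alone -0.33 (adjusted exact permutation p = 0.123). The adjusted p also exceeded 0.1 when TS-nt mouse 1, 2, 3, 5, 6, 7, 8 or 9 was left out, with differences from -0.62 to -0.54. With all libraries kept, the difference was -0.64 without the most abundant L1 element of each library and -0.64 without the most counted member. With the 4 copies set aside by the rule added back it was -0.55. Adjusted exact permutation p-values were 0.0177, 0.0481 and 0.0457 in this order, with WT-nt mouse 1 kept in each.

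No other comparison of shares passed the test. The cortex mean of WT-t was 6.20% ± 0.60 (SD, n = 17) and that of TS-t 6.40% ± 0.70 (SD, n = 13). Adjusted permutation p-values were 0.217 for WT-t vs. WT-nt, 0.469 for TS-t vs. WT-nt, 0.469 for TS-t vs. TS-nt and 0.485 for TS-t vs. WT-t. Hippocampus means were 5.86% ± 0.37 for WT-nt and 5.66% ± 0.35 for TS-nt (SD, n = 8 each), 5.74% ± 0.28 for WT-t (SD, n = 17) and 5.93% ± 0.31 for TS-t (SD, n = 13). There TS-nt differed from WT-nt by -0.20 percentage points (adjusted exact permutation p = 0.469), and TS-t lay above TS-nt by 0.27 (adjusted exact permutation p = 0.217). Among mice of label 20, TS-t exceeded TS-nt by 0.28 in cortex and by 0.30 in hippocampus (adjusted exact permutation p = 0.178 and 0.384), and TS-t differed from WT-nt by -0.32 and 0.11.

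**Figure D1:**
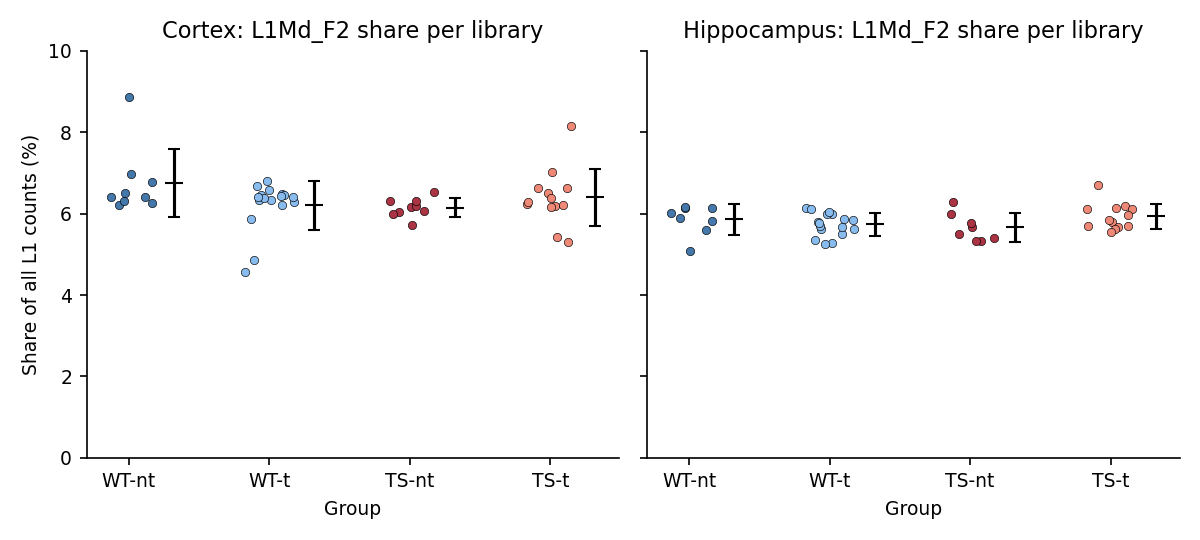
Share of all L1 counts of a library that lay on L1Md_F2 copies (vertical axis, %) by group, in cortex and hippocampus; points are libraries, and the bar beside them is the group mean with its SD. The cortex point at 8.87% is WT-nt mouse 1, and all hippocampus libraries lie between 5.07% and 6.69%.

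Summed to 1 value per library and tested beside the other L1 subfamilies, L1Md_F2 differed between TS-nt and WT-nt cortex by -0.24 ± 0.09 (log2, SE), short of the threshold (edgeR adjusted p = 0.106, where 0.752% of 133 subfamilies were called). DESeq2 called it (adjusted p = 0.0746) as 1 of 20 subfamilies called, or 15% of 133. Without the far libraries edgeR called it too, at a smaller difference of -0.08 ± 0.02 (adjusted p = 0.067). In the same comparison L1Md_F differed by -0.09 ± 0.13, L1Md_F3 by -0.25 ± 0.15 and L1Md_A by -0.22 ± 0.10 (edgeR adjusted p = 0.742, 0.301 and 0.184). L1Md_Gf differed by -0.26 ± 0.17 and L1Md_T by -0.51 ± 0.48 (edgeR adjusted p = 0.354 and 0.551). The effect of treatment on summed L1Md_F2 differed between genotypes by 0.27 ± 0.12 in cortex (edgeR adjusted p = 0.208, DESeq2 0.0892, where DESeq2 called 11.3% of subfamilies) and by 0.10 ± 0.03 in hippocampus (edgeR adjusted p = 0.369). Hippocampus groups differed from -0.05 ± 0.03 for TS-nt vs. WT-nt to 0.06 ± 0.02 for TS-t vs. TS-nt (edgeR adjusted p = 0.542 and 0.401). With the 4 copies set aside by the rule added back, these values were -0.03 ± 0.02 and 0.03 ± 0.02.

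The number of L1Md_F2 copies with a count rises with depth, so libraries were thinned to the smallest L1 total of the tissue, 186545 in cortex and 178454 in hippocampus. In cortex WT-nt libraries then held 3554 ± 585 such copies and TS-nt libraries 3055 ± 732 (SD, n = 9 each). The treated groups held 2954 ± 952 in WT-t (SD, n = 17) and 3325 ± 611 in TS-t (SD, n = 13). WT-t mouse 1 was the lowest, with 305 members counted before thinning and 24.2% of its L1 counts on a single element. In hippocampus the numbers were 2572 ± 504 for WT-nt and 2389.5 ± 688 for TS-nt (SD, n = 8 each), 2526 ± 412 for WT-t (SD, n = 17) and 2661 ± 598 for TS-t (SD, n = 13). None of the 10 comparisons of means passed the threshold, and their smallest adjusted permutation p was 0.646. Without the far libraries, TS-nt minus WT-nt in cortex went from -499 to -263 copies and WT-t minus WT-nt from -599.8 to -109. TS-t minus WT-nt went from -229 to -113, TS-t minus TS-nt from 269.8 to 150.2, and TS-t minus WT-t from 370.4 to -3.48.

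Single copies were tested in fits of the whole L1 table, in which 505 of the 5416 elements past the filter on low counts were members in cortex and 378 of 4238 in hippocampus. These held 39.8% and 43.5% of the member counts. No member was called at an edgeR adjusted p below 0.1 in any of the 6 comparisons of either tissue. Of all elements, 0% were called in each cortex comparison. In hippocampus 0.0708% were called for TS-nt vs. WT-nt, 0.0472% for TS-t vs. WT-nt and 0% in the other 4. DESeq2 called 3 members for TS-t vs. WT-nt in hippocampus, where it called 0.425% of all elements, and no member in the other comparisons. With a minimum of 10 counts in total, which let 14179 members into the cortex test, or with no filter, edgeR called 727 to 5808 members per cortex comparison. These were 6.91% to 29.5% of the members tested with the minimum of 10 counts, beside 6.86% to 25.0% of all elements, and 2.46% to 19.7% with no filter, beside 2.98% to 18.4%.

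At an unadjusted p below 0.05, 5 of 505 cortex members differed between TS-nt and WT-nt, where 1.51% of all elements did. For TS-t vs. WT-nt 17 members did (3.37%), with 13 and 4 of them higher and lower in TS-t, beside 1.75% of all elements, of which 78 and 17 were higher and lower. There were 4 for TS-t vs. TS-nt (0.905% of all elements), 5 for WT-t vs. WT-nt (1.59%), 8 for TS-t vs. WT-t (1.96%) and 5 for the interaction of genotype and treatment (1.11%). Without the far libraries, TS-t vs. WT-nt gave 16 of 498 members (3.21%), below the 4.16% of all elements. With DESeq2's size factors in edgeR the higher and lower members were 14 and 7 for TS-t vs. WT-nt, 1 and 8 for TS-nt vs. WT-nt (against 2 and 3), 8 and 0 for the interaction (against 4 and 1) and 6 and 8 for WT-t vs. WT-nt (against 4 and 1). Over all elements the same scaling gave 83 and 51, 45 and 70 (against 64 and 18), 101 and 17 (against 36 and 24) and 39 and 141 (against 40 and 46) in this order. Hippocampus members at this level were 13 of 378 for TS-nt vs. WT-nt (4.03% of all elements), 19 for TS-t vs. WT-nt (4.25%) and 13 for TS-t vs. TS-nt (3.26%). There were 11 for WT-t vs. WT-nt (3.16%), 15 for TS-t vs. WT-t (3.94%) and 8 for the interaction (3.11%). The comparisons with WT-nt share the same WT-nt mice.

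Positions were at hand for 5 members that the study lists as differentially expressed between TS-t and WT-nt, a list chosen on these samples and so no independent evidence of a direction. L1Md_F2_dup47820 is a 1907 bp copy on the minus strand at chr12:50015570-50017476 (mm10). No gene of GENCODE M21 lies over it, and the nearest, the lincRNA Gm40418, is 102833 bp away. Its cortex level was 88.6 to 426 CPM in WT-nt (median 372), 0 to 884 in WT-t (median 312), 323 to 731 in TS-nt (median 543) and 289 to 875 in TS-t (median 662). In hippocampus it was 310.4 to 1238 CPM in WT-nt (median 795), 473 to 1512 in WT-t (median 848), 961 to 1449 in TS-nt (median 1247) and 43.7 to 1951 in TS-t (median 1119). The medians of both trisomic groups lay above those of both wild-type groups in each tissue, and ranges overlapped. TS-t differed from WT-nt by 0.79 ± 0.33 (log2, SE) in cortex and 0.32 ± 0.28 in hippocampus (edgeR adjusted p = 0.999 and 0.998). Without the far libraries the cortex difference was 0.79 ± 0.21 (edgeR adjusted p = 0.212).

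L1Md_F2_dup23905 is a 396 bp copy on the minus strand at chr6:142486168-142486563, with no gene over it and 3686 bp from Ldhb, which encodes a subunit of lactate dehydrogenase. Its cortex level was 0 to 42.7 CPM in WT-nt (median 22.1), 0 to 156 in WT-t (median 53.7), 20.1 to 129 in TS-nt (median 54.3) and 15.3 to 113 in TS-t (median 59.0). WT-nt was the low group, and the other 3 groups had similar medians. Hippocampus medians did not follow, with 56.0, 47.0, 48.8 and 37.0 CPM in the same order of groups. TS-t differed from WT-nt by 1.49 ± 0.61 in cortex and -0.12 ± 0.58 in hippocampus (edgeR adjusted p = 0.999 and 0.998), and a difference between tissues was not tested.

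L1Md_F2_dup29898, of 480 bp on the plus strand at chr8:99526444-99526923, lies in an intron of the lincRNA A330008L17Rik, which has the same strand. Its hippocampus level was 0 to 87.5 CPM in WT-nt (median 15.3), 0 to 141 in WT-t (median 48.6), 12.9 to 179 in TS-nt (median 84.6) and 0 to 269 in TS-t (median 95.1). WT-nt had the lowest median, and all groups overlapped. TS-t differed from WT-nt by 1.95 ± 0.59 (edgeR adjusted p = 0.403, DESeq2 adjusted p = 0.0994). In cortex medians were 49.6, 31.3, 52.4 and 68.9 CPM, and the same difference was 0.32 ± 0.58 (edgeR adjusted p = 0.999).

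The remaining 2 located copies had too few counts for the test in either tissue. L1Md_F2_dup6497, of 1863 bp on the minus strand at chr2:69093924-69095786, lies in an intron of Cers6, a ceramide synthase gene on the plus strand. Summed cortex counts were 67 in WT-nt, 62 in WT-t, 25 in TS-nt and 12 in TS-t, where 8 of 13 libraries had none. Levels were 0 to 82.7 CPM in WT-nt (median 33.9) and 0 to 23.4 CPM in TS-t (median 0). Their means differed by -34.1 CPM, in the comparison for which the copy was listed on these samples, so no p-value is given. Hippocampus means differed by 3.52 CPM (exact permutation p = 0.629, unadjusted). L1Md_F2_dup45970, of 1348 bp on the plus strand at chr11:53689220-53690567, lies in an intron of Rad50, a DNA repair gene on the minus strand. It had 68 counts in WT-nt cortex, at levels of 0 to 162 CPM in WT-nt (median 17.3), and 4, 6 and 4 in WT-t, TS-nt and TS-t. Mean cortex levels were 33.88 CPM in WT-nt, 1.6 in WT-t, 4.025 in TS-nt and 1.582 in TS-t. This copy too was listed on these samples, so no p-value is given. In WT-nt 3 of 9 cortex libraries had none, and the hippocampus counts of the 4 groups were 26, 17, 28 and 25.

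Among members without a known position, L1Md_F2_dup37213 had the smallest adjusted p of all members between groups. Its hippocampus level was 190.3 to 437 CPM in WT-nt (median 267), 41.9 to 331 in WT-t (median 168), 54.3 to 273 in TS-nt (median 137) and 25.0 to 318 in TS-t (median 132). WT-nt was the high group, and each other group overlapped with it. Against the same 8 WT-nt mice TS-t differed by -1.15 ± 0.30 (edgeR adjusted p = 0.178, DESeq2 adjusted p = 0.0994), TS-nt by -0.94 ± 0.34 and WT-t by -0.75 ± 0.28 (edgeR adjusted p = 0.907 and 1.0). Its cortex medians were 78.3, 80.1, 43.1 and 50.9 CPM. L1Md_F2_dup25751, also called by DESeq2 in hippocampus, was at 20.7 to 70.5 CPM in WT-nt (median 47.3) and 29.3 to 393 CPM in TS-t (median 81.3), which differ by 1.41 ± 0.45 (edgeR adjusted p = 0.502, DESeq2 adjusted p = 0.0994).

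L1Md_F2_dup52915, named because an earlier analysis of these data had called it, had the smallest p-value of the members between treated and non-treated TS mice. Its hippocampus level was 0 to 125 CPM in WT-nt (median 13.7), 0 to 146 in WT-t (median 24.2), 0 to 138 in TS-nt (median 72.9) and 0 to 22.2 in TS-t (median 0). A count was found in 7 of 8 TS-nt and 6 of 13 TS-t libraries, and the wild-type groups overlapped with both. TS-t differed from TS-nt by -3.31 ± 0.84 (edgeR adjusted p = 0.372, DESeq2 adjusted p = 0.282), and among mice of label 20 by -3.62 ± 0.94 (edgeR adjusted p = 0.401). The treatment effect differed between genotypes by -3.47 ± 1.17 (edgeR adjusted p = 1.0). Every group median was 0 in cortex.

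**Figure D2:**
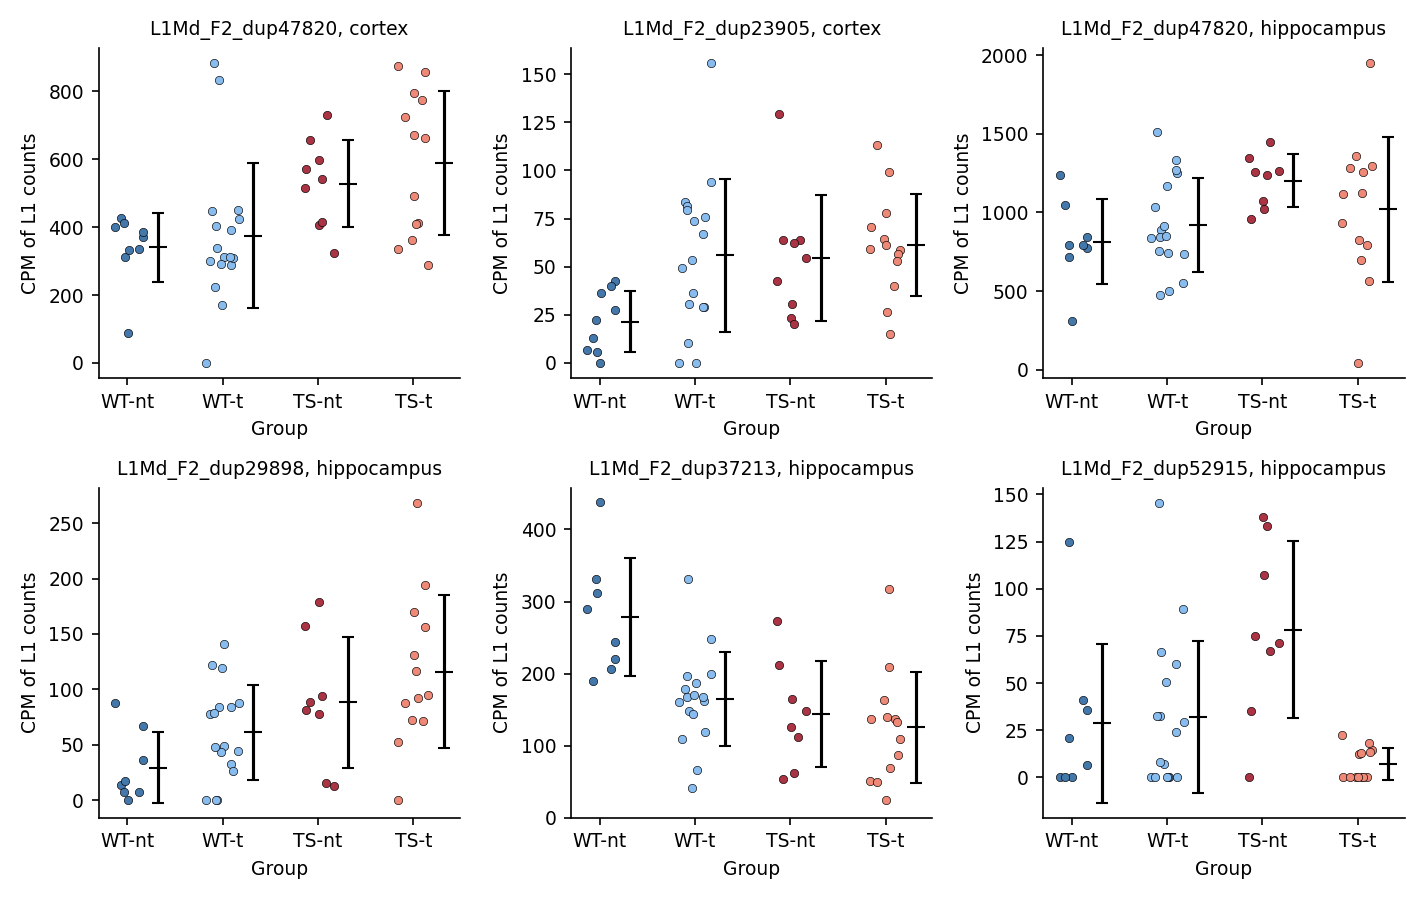
Levels (vertical axes, CPM of L1 counts) of L1Md_F2_dup47820 and L1Md_F2_dup23905 in cortex and of L1Md_F2_dup47820, L1Md_F2_dup29898, L1Md_F2_dup37213 and L1Md_F2_dup52915 in hippocampus by group; points are libraries, and the bar beside them is the group mean with its SD. Groups overlap in every panel, and no TS-t point of L1Md_F2_dup52915 lies above 22.2 CPM.

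L1Md_F2_dup19834 was low in TS-nt mice in both tissues, which came from the same animals. Its cortex level was 0 to 154 CPM in WT-nt (median 88.2), 0 to 234 in WT-t (median 18.7), 0 to 40.6 in TS-nt (median 0) and 0 to 102 in TS-t (median 21.2). Hippocampus medians were 54.2, 22.2, 0 and 18.04 CPM. TS-nt differed from WT-nt by -2.58 ± 0.88 in cortex and -2.62 ± 1.01 in hippocampus (edgeR adjusted p = 0.999 and 0.998), and 5 of 9 and 5 of 8 TS-nt libraries had no count. L1Md_F2_dup4463 had its lowest median in WT-nt in both tissues, with 12.2, 66.1, 63.8 and 59.0 CPM in cortex and 17.2, 33.1, 55.6 and 34.7 CPM in hippocampus, in the order used above. L1Md_F2_dup59856 had its lowest median there too, with 49.6, 53.1, 69.6 and 93.9 CPM in cortex and 48.2, 78.1, 112 and 81.2 CPM in hippocampus. For WT-t vs. WT-nt in hippocampus L1Md_F2_dup20315 came first by p, at 93.4 to 324 CPM in WT-t (median 203) and 49.4 to 175 CPM in WT-nt (median 107), a difference of 1.05 ± 0.31 (edgeR adjusted p = 1.0).

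In 40 of 46 mice the share of L1 counts on L1Md_F2 was lower in hippocampus than in cortex, with means of 5.80% and 6.35% and a mean difference of -0.55 percentage points (SD 0.69, sign permutation test, p = 1e-05, the smallest these permutations can give). Without the mice with a far library it was -0.51 (SD 0.34) and lower in 36 of 38. A lower share in hippocampus was not particular to L1Md_F2. Median shares in cortex and hippocampus were 0.283% and 0.260% for L1Md_F, 1.24% and 1.22% for L1Md_F3, and 2.51% and 2.35% for L1Md_T. They were 1.59% and 1.44% for L1Md_A and 0.106% and 0.101% for L1Md_Gf, against 6.33% and 5.79% for L1Md_F2. The other subfamilies were not tested between tissues. Of 685 members tested between tissues 151 were called (edgeR adjusted p below 0.1). Among them 47 were higher in hippocampus, where 9.99% of the 7388 elements tested were called higher, and 104 were lower, where 11.7% of all were. Higher copies thus made up 31.1% of the members called and 46.1% of all elements called, and the median log2 difference was -0.22 over members and -0.09 over all elements. With DESeq2's size factors in edgeR the medians became -0.34 and -0.22, and 40 members were called higher and 149 lower (21.2% higher, against 30.6% of all elements). With a minimum of 10 counts in total, higher copies were 17.8% of the members called and 17.8% of all elements called, and the medians were -0.51 and -0.47, so the lower share among members was not seen under that filter. With the mouse as a replicate block 59 members were higher and 121 lower (32.8% higher, against 48.8% of all elements).

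Some copies that were higher in hippocampus were close to unread in cortex. The filter on low counts could be passed by the level in a single tissue. Such copies entered the test through the tissue where they were high, so their p-values are no independent support for the difference. L1Md_F2_dup35653 was at 0 to 66.2 CPM in cortex (median 10.9) and 11.6 to 273 CPM in hippocampus (median 106). It was higher in hippocampus in all 46 mice, by 3.18 ± 0.30 (edgeR adjusted p = 7.55e-20). L1Md_F2_dup27495 had no count in 31 cortex libraries and 3 hippocampus libraries, and was higher in 43 mice, by 3.92 ± 0.40 (edgeR adjusted p = 2.27e-17). L1Md_F2_dup4366 and L1Md_F2_dup4363 had 19 and 16 counts over 46 cortex libraries and 411 and 297 over 46 hippocampus libraries, and differed by 4.66 ± 0.61 and 4.08 ± 0.52 (edgeR adjusted p = 4.09e-09 and 6.86e-12). L1Md_F2_dup2021 had medians of 16.3 and 91.2 CPM and differed by 2.46 ± 0.32 (edgeR adjusted p = 1.66e-10). Among the leading copies, L1Md_F2_dup47820 was higher in hippocampus in 43 mice, by 1.11 ± 0.16, and L1Md_F2_dup50760 in 39, by 0.41 ± 0.12 (edgeR adjusted p = 3.62e-08 and 0.00595).

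Copies lower in hippocampus were headed by L1Md_F2_dup42423, at 0 to 199 CPM in cortex (median 88.3) and 0 to 90.1 CPM in hippocampus (median 0), a difference of -3.51 ± 0.38 (edgeR adjusted p = 2.82e-15). It was lower in hippocampus in 41 mice, and 34 hippocampus libraries had no count. L1Md_F2_dup42424, with the next number, differed by -3.34 ± 0.39, and L1Md_F2_dup49469, lower in 44 mice, by -3.34 ± 0.40 (edgeR adjusted p = 5.58e-11 and 1.82e-13). L1Md_F2_dup3680 and L1Md_F2_dup3682 differed by -3.26 ± 0.48 and -3.12 ± 0.46 (edgeR adjusted p = 3.24e-09 and 4.45e-09). Copies close to unread in hippocampus likewise entered the test through their cortex level, and the same limit holds for their p-values. The much counted L1Md_F2_dup25903 was lower in 42 mice, with medians of 1251 CPM in cortex and 622 CPM in hippocampus, by -0.88 ± 0.12 (edgeR adjusted p = 1.95e-10). L1Md_F2_dup28824 and L1Md_F2_dup28825 differed by -0.15 ± 0.14 and -0.29 ± 0.14, short of the threshold (edgeR adjusted p = 0.517 and 0.156), and passed it with the mouse as a replicate block (edgeR adjusted p = 0.0856 and 0.000445).

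**Figure D3:**
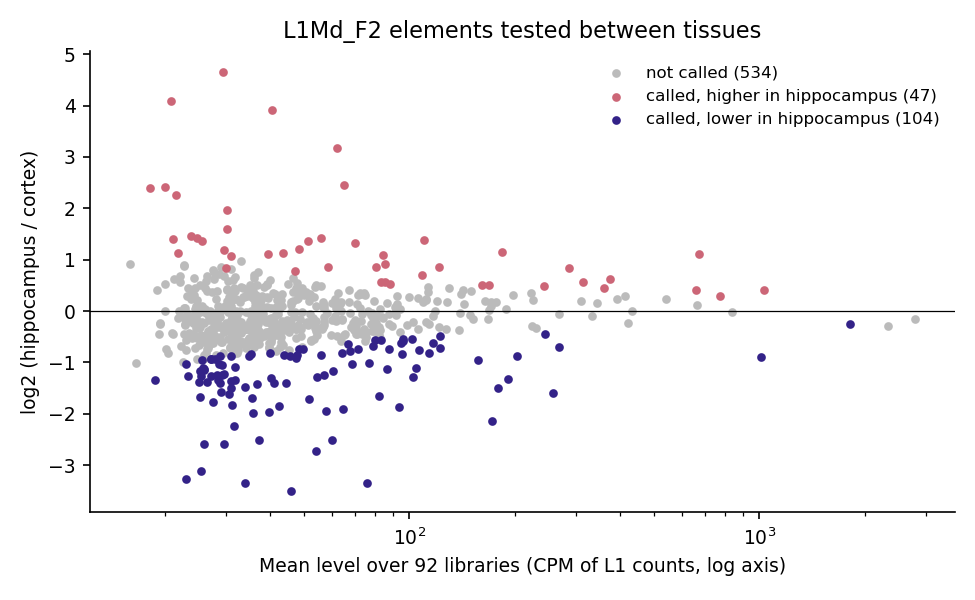
Log2 difference of hippocampus from cortex (vertical axis) against mean level over 92 libraries (horizontal log axis, CPM of L1 counts) for the 685 L1Md_F2 copies tested, colored by the call at an edgeR adjusted p below 0.1. Of the called copies 104 lie below 0 and 47 above it.

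Copies with consecutive numbers differed between tissues in like ways. Of the tested members 96 pairs had consecutive numbers, and the log2 differences of a pair had the same sign in 78 (81.2%), with r = 0.84 across pairs. Over all L1 elements 985 such pairs had the same sign in 81.1%, with r = 0.78. Both copies were called in 14 member pairs, always in 1 direction, as they were in 125 of 125 such pairs of all elements. L1Md_F2_dup15715 to L1Md_F2_dup15719 were 5 consecutive copies lower in hippocampus, with log2 differences from -1.85 to -1.28. L1Md_F2_dup47883, L1Md_F2_dup47884 and L1Md_F2_dup47885 were higher there, by 1.20, 0.56 and 0.57. Both runs were picked with their values in view. The 5 located copies are numbered in chromosome order, but positions of the pairs were not known, and copies of 1 library are not independent replicates.

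**Figure D4:**
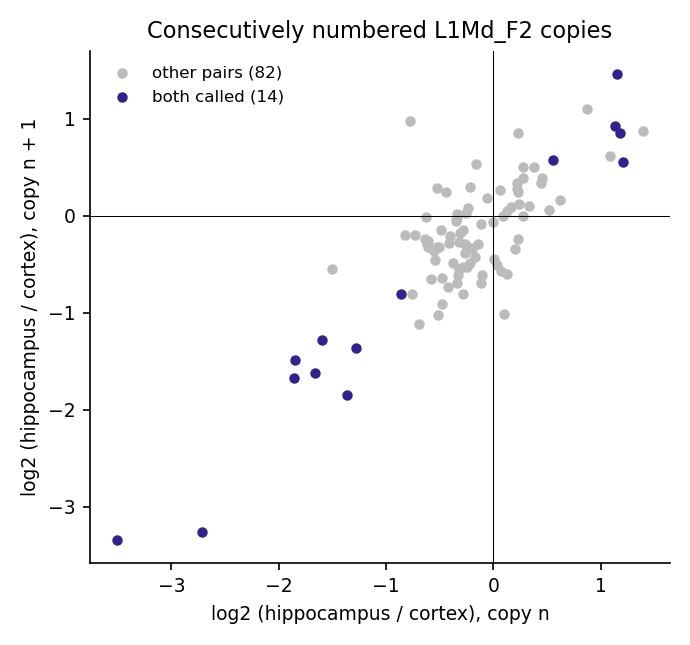
Log2 difference of hippocampus from cortex of an L1Md_F2 copy (horizontal axis) against that of the copy with the next number (vertical axis), for 96 pairs; dark points are the 14 pairs with both copies called. In 78 pairs both values have the same sign.

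Differences between mice were shared by the tissues in few members. Over 46 mice the rank correlation (rho) of a copy's cortex and hippocampus levels had a median of 0.13 over the 322 members tested in both tissues and of 0.11 over all 3722 such elements. It exceeded 0.5 in 16 members (4.97%) and in 3.36% of all elements. L1Md_F2_dup64707 had the highest rho of all 3722, 0.89 (r = 0.81, also without the 2 mice farthest from the median), and within labels beginning with 18, 19 and 20 its rho was 0.89, 0.89 and 0.90 (n = 7, 12 and 27). Its cortex level was 42.7 to 579 CPM in WT-nt (median 242), 0 to 684 in WT-t (median 304), 185 to 663 in TS-nt (median 365) and 90.0 to 592 in TS-t (median 264). Hippocampus levels were 75.9 to 1054 CPM in WT-nt (median 366), 51.9 to 1089 in WT-t (median 352), 109 to 636 in TS-nt (median 391) and 58.3 to 742 in TS-t (median 291). The groups overlapped in both tissues. L1Md_F2_dup42144 (rho = 0.72, r = 0.70) and L1Md_F2_dup16768 (rho = 0.67, r = 0.60) came next, and within label 18 the rho of L1Md_F2_dup42144 was 0.11. The 3 copies were named for their rho, which is a description with no test.

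**Figure D5:**
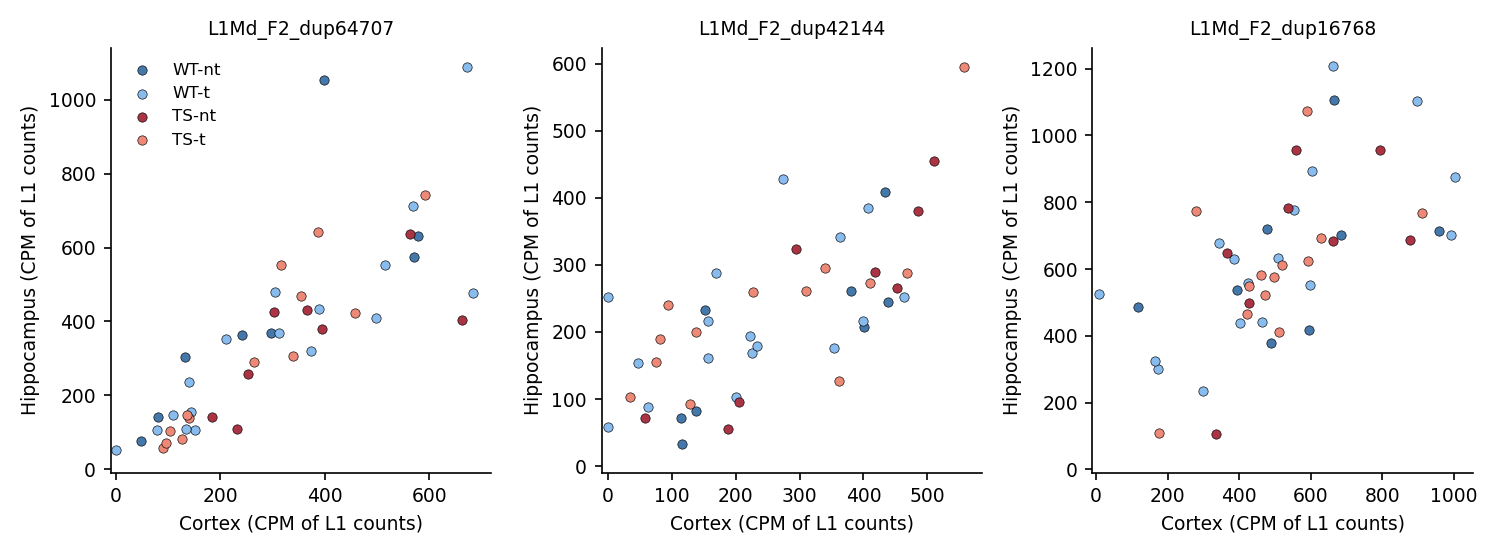
Hippocampus level (vertical axis, CPM of L1 counts) against cortex level (horizontal axis, CPM of L1 counts) of L1Md_F2_dup64707, L1Md_F2_dup42144 and L1Md_F2_dup16768; points are 46 mice, colored by group. For L1Md_F2_dup64707 the points rise together (rho = 0.89) with the groups mixed.

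The share on L1Md_F2 as a whole was weakly related between the tissues of a mouse. Over 46 mice r was 0.16 (permutation p = 0.296) and rho 0.31 (permutation p = 0.0392), and without the 2 mice farthest from the median cortex share r was 0.43. WT-nt mouse 1, highest in cortex, had the lowest hippocampus share, 5.07%. Within label beginnings r was 0.84 for 18 (n = 7, exact permutation p = 0.0169), 0.20 for 19 (n = 12, permutation p = 0.519) and -0.19 for 20 (n = 27, permutation p = 0.345). For label 18 rho was 0.64 (exact permutation p = 0.139), and for labels 19 and 20 it was 0.38 and 0.27 (permutation p = 0.226 and 0.17). These values rest on few mice, since without the 2 farthest of each label r became 0.56, 0.34 and 0.34, and rho for 18 became 0.10.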

How the data were processed

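Total RNA of cortex and hippocampus was sequenced by the authors with a stranded, ribosomal RNA depleted kit. Per the labels and the study's methods, reads were trimmed with Trimmomatic 0.38, aligned to GRCm38/mm10 with HISAT2 2.1.0, with up to 5 alignments kept per read, and assigned to single L1 elements with Telescope, whose version and strand setting are not given in the sources used here. The deposited values are raw counts per element with no normalization. Reads of near-identical copies are divided by estimation, so their counts are uncertain. The study's methods mention pooling in groups of 3 before RNA quality was measured. Each library was taken as 1 mouse, and if libraries were pools, p-values measure the spread between pools.

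Counts of the whole table were tested per tissue with edgeR 4.0.16 in R 4.3.3 (filterByExpr with 10 and 15 counts, TMM, robust glmQLFit, glmQLFTest), with all 4 groups in the model and Benjamini-Hochberg adjustment over all elements tested, at a threshold of 0.1. Tissues were compared over the 46 mice with both. Permutation tests (numpy 2.4.6) were two-sided, exact where few enough regroupings exist and otherwise with 100000 draws, and adjusted over 10 comparisons. Same-numbered libraries of the 2 tissues come from the same mouse by their labels, and the fit with that block was an alternative, as was DESeq2 1.42.0. On simulated data only the fits per tissue with the main filter were tested, by edgeR and DESeq2, for TS-nt vs. WT-nt. The fits between tissues, of summed subfamilies, of the interaction and with other filters or scaling were not. Named members were those on the study's list, the 5 of highest mean level per tissue, the 2 of smallest p per direction in 4 comparisons, of which a part is given, the 5 largest tissue differences per direction, the 3 of highest rho and L1Md_F2_dup52915. Members and lists were chosen with earlier results of these data known. Gene annotation was GENCODE M21. Counting precision is limited by the L1 totals given with the results. The sequences of the copies were not used here.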

Additional observations from a re-analysis of the deposited data

Results flagged for a closer look

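In the non-treated groups, values of a library were set against the rest of its group by Dixon's test at 95%. It flags about 1 in 20 groups by chance only if values are normally distributed and groups are independent. Many of the groups share libraries, and the copies were chosen on these data. The 23 such values found over 152 groups examined are therefore not compared with that rate. WT-nt mouse 1, far on the first principal component in cortex, accounted for 8 of them there. Its L1Md_F2 share was 8.87%. It had the highest level of L1Md_F2_dup33566 (4057 CPM, WT-nt median 18.3), L1Md_F2_dup61822 (461 CPM), L1Md_F2_dup17611 (203 CPM), L1Md_F2_dup24443 (325 CPM) and L1Md_F2_dup49469 (218 CPM), and the lowest of L1Md_F2_dup47820 (88.6 CPM) and L1Md_F2_dup50760 (125.5 CPM). In hippocampus the same mouse had the highest L1Md_F2_dup25903 (2081 CPM) and L1Md_F2_dup27495 (289 CPM).

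Among TS-nt cortex libraries mouse 4, which has the largest L1 total of its group, had the most members counted at equal depth (4687) and the highest L1Md_F2_dup32152 (112 CPM), L1Md_F2_dup37213 (109 CPM) and L1Md_F2_dup25834 (450.3 CPM). Mouse 5 had the highest L1Md_F2_dup33566 (128 CPM) and L1Md_F2_dup42424 (385 CPM), and mouse 3 the highest L1Md_F2_dup23905 (129 CPM).

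Among WT-nt hippocampus libraries the highest values of L1Md_F2_dup63459 (150.5 CPM, mouse 5), L1Md_F2_dup51326 (185 CPM, mouse 8), L1Md_F2_dup52915 (125 CPM, mouse 7) and L1Md_F2_dup16768 (1107 CPM, mouse 3) stood apart. TS-nt mouse 1 had the highest hippocampus levels of L1Md_F2_dup28824 (5930.0 CPM) and L1Md_F2_dup28825 (4123 CPM).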

How the results depend on the processing

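Of 585 values recomputed under alternatives, 520 kept their direction and their side of the threshold or count. An alternative meant to leave out libraries could not change a value where it left out none, as in hippocampus without far libraries. The same holds for the share of TS-nt vs. WT-nt with treated mice limited to label 20, so 520 is not a measure of robustness. The number of members called between groups depended most on the filter. In cortex 0 members were called, and a minimum of 10 counts in total gave 3424 (TS-nt against WT-nt), 4183 (TS-t against WT-nt), 980 (TS-t against TS-nt), 3753 (WT-t against WT-nt), 2109 (TS-t against WT-t) and 1452 (interaction), while in this order no filter gave 4118, 5808, 727, 5105, 3951 and 1228. In hippocampus the first gave 1302, 1126, 1164, 1056, 907 and 1048, and no filter gave 0, 1260, 1272, 892, 1800 and 904. With 10 counts 6.86% to 25.0% of all elements were called per cortex comparison and 10.6% to 14.5% per hippocampus comparison (members 6.91% to 29.5% and 10.5% to 15.1%), and with no filter 2.98% to 18.4% and 0% to 9.27% (members 2.46% to 19.7% and 0% to 8.23%). These alternatives test many more copies with few counts, and the cause was not tested further. An unadjusted p of 0.05 with a log2 difference of 1.5 gave 4, 1, 1, 2, 1 and 5 members in cortex and 7, 7, 3, 1, 1 and 5 in hippocampus (0.198% to 0.99% and 0.265% to 1.85% of members, beside 0.111% to 0.923% and 0.165% to 1.32% of all elements), and DESeq2 gave 3 for TS-t vs. WT-nt in hippocampus. Between tissues a minimum of 10 counts gave 363 members higher and 1682 lower (5083 and 23509 of all elements), DESeq2 48 and 183 (727 and 1600), in all 231 against 151, and the replicate block 59 and 121 (938 and 983).

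The share of TS-nt minus WT-nt in cortex was -0.28 without the far libraries, past the threshold no longer, and -0.66 to -0.33 when each mouse was left out. The share of TS-t minus TS-nt in hippocampus was 0.20 to 0.36 when each was left out, and passed the threshold without TS-nt mouse 4 (0.358, adjusted exact permutation p = 0.0844). That of TS-t minus WT-nt there was -0.0407 to 0.114, below 0 without WT-nt mouse 1. Directions turned for values that had not passed a test. Without the far libraries, TS-t minus WT-t in cortex was -0.1 for the share, -3.48 for the copies counted and -0.00484 for the summed subfamily. Label 20 holds only 3 WT-t mice and 8 TS-t mice. With treated mice of label 20 alone, WT-t minus WT-nt in hippocampus was 0.0768 for the share and 280.0 for the copies counted, TS-t minus WT-t was -182 for the copies counted and -0.00403 for the summed subfamily, and the summed subfamily gave -0.00733 for TS-t vs. WT-t in cortex and -0.00934 for TS-t vs. WT-nt in hippocampus (-0.00349 with only these groups fitted). The summed subfamily in cortex passed the threshold for TS-nt vs. WT-nt with DESeq2 (-0.258) and without the far libraries (-0.0756), and for the interaction with DESeq2 (0.294), which called 20 and 15 of 133 subfamilies in these comparisons. Over mice, rho of the shares was 0.289 without the most counted member (permutation p = 0.0533). DESeq2's size factors moved the median log2 value of all elements for the cortex interaction from 0.02 to 0.15. No paired analysis between groups was possible because their mice are different animals. The causes were not tested.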
